A study of Mus musculus with 24 samples.

Results

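The genes described here are 7 of the 27179 in the deposited count table: the R-spondin receptors Lgr4, Lgr5 and Lgr6, the ubiquitin ligases Znrf3 and Rnf43, and the mammary stem cell markers Tspan8 and Procr. Their rows were taken by Entrez identifier. All 7 passed the filter on low counts, as did 18109 genes in all. Bulk RNA sequencing covered 12 groups of sorted mouse mammary cells with 2 libraries each, 24 in all. The glands were pubertal and were microdissected to separate ducts from terminal end buds (TEBs), the bulbous tips from which ducts elongate.

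Lineage-negative EpCAM+ cells were sorted into a basal gate with high CD29 and a luminal gate with low CD29. In the Elf5-rtTA-IRES-GFP model the luminal gate was divided into GFP+ and GFP- cells, the GFP standing for expression from the Elf5 allele. In the PR-cre/Rosa26-LSL-eYFP model it was divided into YFP+ and YFP- cells, and Cre-dependent YFP marks cells that express the Cre driver as well as cells descended from them. Basal cells of both models were sorted, which gives 6 sorted populations in each tissue, all from reporter mice and none from mice without a reporter. The labels give no age in days and no doxycycline treatment, and they leave unstated whether paired libraries are separate animals or pools. The p-values therefore measure the spread between these libraries, which may be technical.

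R-spondins are secreted proteins that bind LGR4, LGR5 or LGR6. The complex removes ZNRF3 and RNF43 from the cell surface, and these 2 ligases otherwise mark Frizzled receptors for degradation, so that R-spondin raises the sensitivity of a cell to Wnt ligands. ZNRF3 and RNF43 are themselves induced by Wnt signalling in several tissues and act as feedback inhibitors. In the mammary gland, Lgr5, Tspan8 and Procr have each been used to mark basal cells with regenerative capacity, and Rspo1 is a product of luminal cells.

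Library totals ran from 31264622 to 52495208 counts. Levels are in CPM, counts scaled to a common library size by the trimmed mean of M-values. A library with no count of a gene allows up to the level of 3 counts by counting error alone, which was 0.057 to 0.096 CPM. Elf5 lay between 691 and 1660 CPM in GFP+ and YFP- ducts, between 410 and 759 CPM in GFP+ and YFP- TEBs, and between 15 and 87.3 CPM in every GFP- and YFP+ library. Pgr, the progesterone receptor gene, lay between 202 and 635 CPM in GFP- and YFP+ libraries and at 73.3 CPM or less in the others. GFP+ and YFP- cells are therefore described together as GFP+/YFP- luminal cells, and GFP- with YFP+ cells as GFP-/YFP+ luminal cells, with 4 libraries per tissue in each. The 12 keratinocyte markers together reached 2465.9 CPM in GFP- duct replicate 2, to 495.7 CPM in YFP- TEB replicate 2 and to 82.0 CPM in YFP- TEB replicate 1. The remaining libraries held 8.7 to 48.9 CPM of these markers. Results that rest on the first 2 of these libraries are given with and without them. The comparisons below draw on the same 24 libraries and share groups, so they are not independent of each other. A result for 1 model or population alone is a contrast of its groups within the fit to all 24 libraries. Its SE and p-value therefore still draw on the spread in all groups.

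The 3 receptor genes lie on different chromosomes of the mouse genome (GRCm38): Lgr4 at chr2:109917647-110014257, Lgr5 at chr10:115450314-115587780 and Lgr6 at chr1:134983300-135105374. Znrf3 lies at chr11:5276329-5444847, Rnf43 at chr11:87663087-87735539, Tspan8 at chr10:115816817-115849893 and Procr at chr2:155751125-155755478. Lgr5 and Tspan8 are close neighbours, 229036 bases apart. The values below are summed over each gene's whole exon length as deposited, from 1504 bases for Procr to 6306 bases for Znrf3. The library kit does not mark strand, and the coding gene A930009A15Rik overlaps Lgr5, so reads of the overlap cannot be told apart. A930009A15Rik itself held 0.491 CPM at most. Rnf43 is likewise overlapped by the non-coding 1110028F11Rik.

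**Figure D1:**
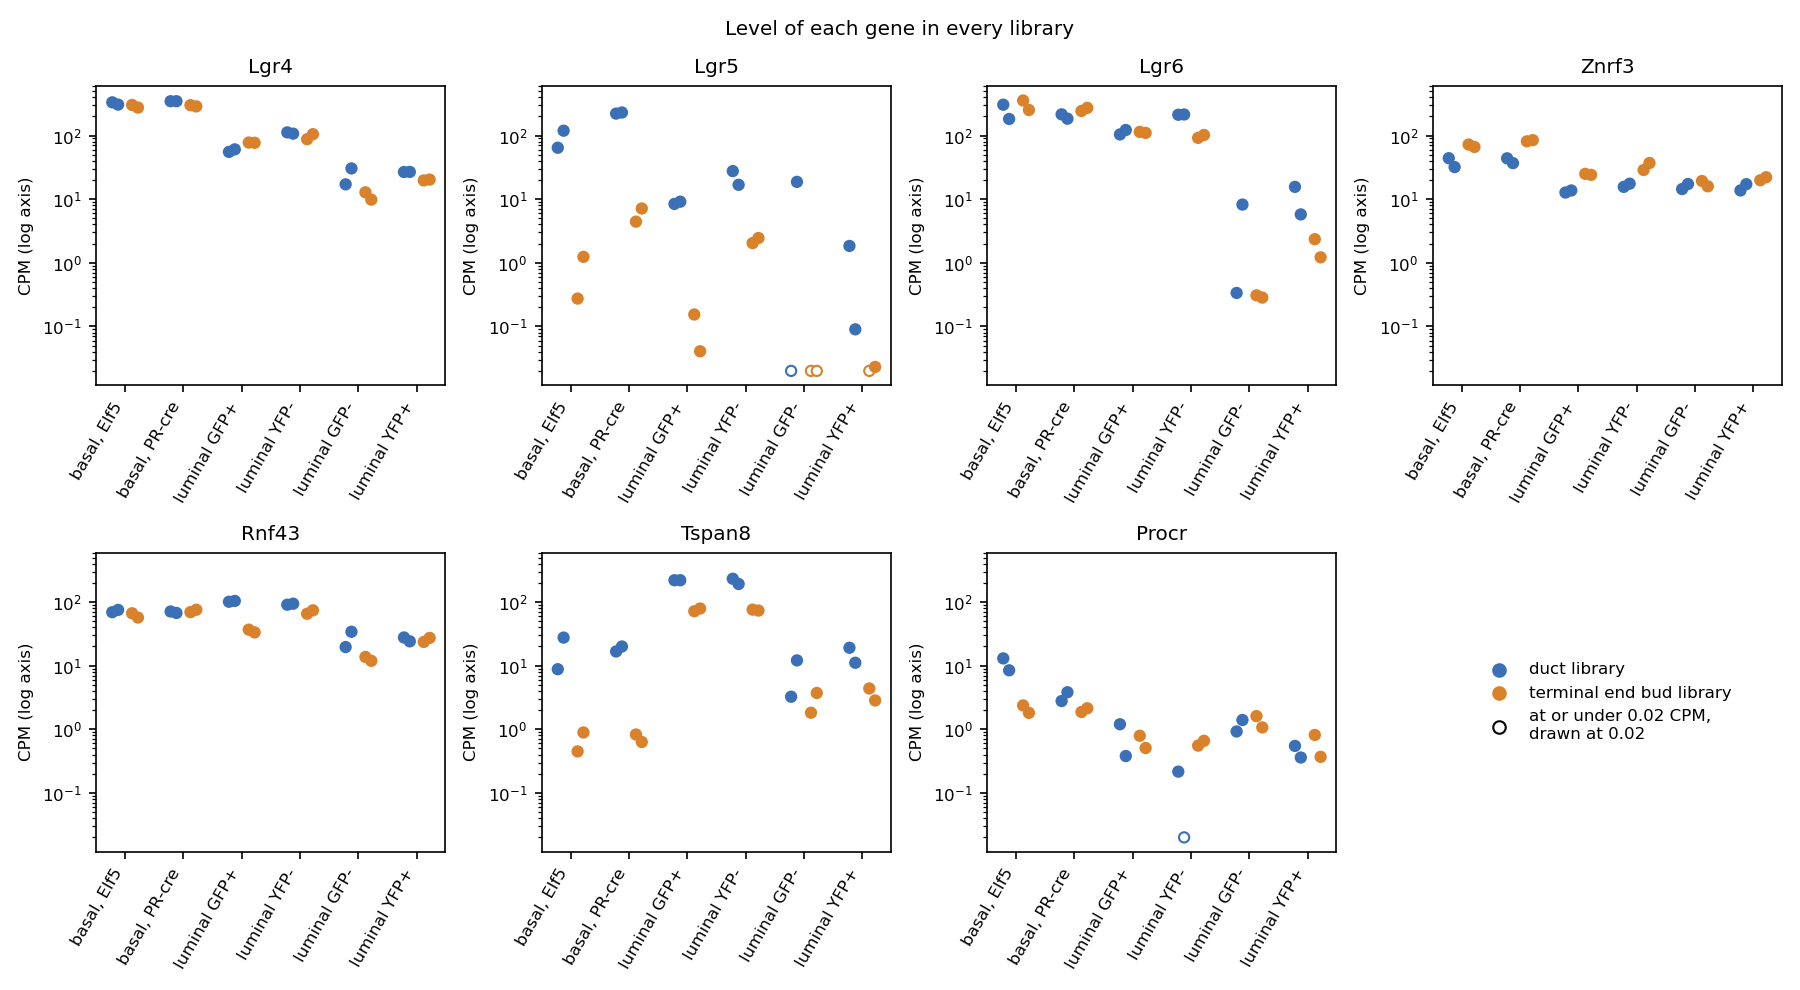
The level of each of the 7 genes in every library, in CPM on a log axis, for the 6 sorted populations (2 libraries each in duct, blue, and TEB, orange). Lgr5 and Tspan8 are lower in the basal TEB libraries than in every basal duct library, and open circles mark values at or under 0.02 CPM, drawn at 0.02.

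Among the R-spondin receptors, Lgr4 was the one at 9.82 CPM or more in every library, and its level separated the sorted compartments. In basal cells it stood at 332 and 306 CPM in Elf5 ducts, 346 and 346 CPM in PR-cre ducts, 302 and 275 CPM in Elf5 TEBs, and 300 and 287 CPM in PR-cre TEBs. It stood at 55.3 and 60.6 CPM in GFP+ ducts, 77.6 and 76.8 CPM in GFP+ TEBs, 112 and 107 CPM in YFP- ducts, and 87.5 and 105 CPM in YFP- TEBs. In the GFP-/YFP+ populations it ranged over 17.1 to 30.4 CPM for ducts and 9.82 to 20.3 CPM for TEBs. The basal, GFP+/YFP- and GFP-/YFP+ libraries thus formed 3 ranges that did not overlap. Ordered by mean over the 12 groups, 8 of the 11 neighbouring pairs of groups had ranges that did not overlap.

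The basal and luminal comparison asked how the layers differ. In ducts, 6 of the 7 genes were higher in basal than in luminal cells and Tspan8 was lower, where 63.3% of all genes tested were called, 33.5% higher and 29.8% lower (edgeR quasi-likelihood test, adjusted p under 0.05, the rule for every call below). In TEBs the same counts were 6 higher and 1 lower, where 58.8% of all genes were called, 30.8% higher and 28% lower. Lgr4 was 7.42-fold higher in basal duct cells (log2 2.89 ± 0.11 SE, adjusted p = 3.34e-13 by edgeR) and 8.08-fold higher in basal TEB cells (log2 3.01 ± 0.11). Against the mean log2 level of the luminal groups, Lgr6 (6.80-fold in ducts, 32-fold in TEBs) and Znrf3 (2.58-fold and 3.24-fold) were also higher in basal cells. So were Rnf43 (1.39-fold and 2.24-fold), Procr (below) and Lgr5. In ducts, GFP+/YFP- cells held more Rnf43 (90.7 to 104 CPM) than basal cells (67.3 to 75.2 CPM). GFP-/YFP+ duct cells held less (19.6 to 34.1 CPM). Lgr5 was 22-fold higher in basal ducts (log2 4.46 ± 0.73 SE, adjusted p = 0.00015 by edgeR), and 7.35 ± 0.62 without the 2 keratinocyte libraries. In TEBs it was called (adjusted p = 0.0112 by edgeR) but not without basal Elf5 TEB replicate 2 (adjusted p = 0.148) or in the Elf5 model alone (0.121). Rnf43 in ducts was not called with 6 means (0.48, adjusted p = 0.0581). Lgr6 in ducts was log2 2.77 ± 0.41, and 3.69 ± 0.28 without the 2 keratinocyte libraries. Its folds against luminal cells are large because GFP-/YFP+ cells held little, with means of 7.47 CPM in ducts and 1.04 CPM in TEBs. GFP+/YFP- cells had means of 163 and 104 CPM, against 222 and 281 CPM in basal cells.

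Between tissues, with all libraries, Lgr4 was called only in GFP-/YFP+ cells. Its basal TEB libraries all lay below its basal duct libraries, by log2 -0.19 ± 0.12 SE, which was not called (adjusted p = 0.236 by edgeR). Without the 2 keratinocyte libraries, neither of them basal, the spread shared by all groups was smaller and the same change was called (-0.20 ± 0.07, adjusted p = 0.0344). GFP+/YFP- cells differed by 0.12 ± 0.13 (adjusted p = 0.539 by edgeR), an average of opposite directions. GFP+ cells alone gave 0.41 ± 0.18, with duct and TEB ranges that did not overlap, and YFP- cells alone -0.18 ± 0.18. Neither was called (adjusted p = 0.111 and 0.529 by edgeR). In GFP-/YFP+ cells Lgr4 was 1.68-fold lower in TEBs (log2 -0.74 ± 0.13, adjusted p = 0.000599 by edgeR). The call was lost in the PR-cre model alone (-0.42, adjusted p = 0.188) and when 1 mean was fitted per compartment and tissue, called 6 means below (-0.69, adjusted p = 0.0516).

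Lgr6 had a related distribution, with a sharper limit at the GFP-/YFP+ luminal cells. Basal ducts held 305 and 182 CPM in the Elf5 model and 215 and 184 CPM in the PR-cre model, and basal TEBs held 355 and 252 CPM and 243 and 272 CPM. GFP+ cells held 104 and 122 CPM in ducts and 114 and 110 CPM in TEBs, while YFP- cells held 212 and 214 CPM in ducts and 91.8 and 102 CPM in TEBs. The YFP- duct libraries fell within the basal range, and the GFP+ libraries below it. In GFP- cells Lgr6 was at 0.336 and 8.22 CPM in ducts and 0.308 and 0.284 CPM in TEBs, and in YFP+ cells at 15.6 and 5.76 CPM in ducts and 2.35 and 1.22 CPM in TEBs. The library at 8.22 CPM is the one with the most keratinocyte transcripts. It also held 3617.0 CPM of 12 basal markers, against 57.6 to 69.2 CPM in the other GFP-/YFP+ duct libraries.

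Lgr6 was 22.9-fold higher in GFP+/YFP- than in GFP-/YFP+ duct cells (log2 4.52 ± 0.57 SE, adjusted p = 1.58e-05 by edgeR), and 6.32 ± 0.47 on the log2 scale without the 2 keratinocyte libraries. In TEBs it was 142-fold higher (log2 7.15 ± 0.69, adjusted p = 1.32e-06 by edgeR). Over the 7 genes this reporter comparison called 4 in ducts, all higher in GFP+/YFP- cells, where 47.9% of all genes were called, 24.6% higher, and 5 in TEBs, all higher, where 47.6% were called, 24.6% higher. Lgr4, Lgr6, Rnf43 and Tspan8 were called in both tissues, and Znrf3 in TEBs. Lgr5 in TEBs, with no count in the GFP- group, was not called (adjusted p = 0.167 by edgeR). Lgr5 was called there, higher in GFP+/YFP- cells, with 6 means (adjusted p = 0.0302 by edgeR) and by DESeq2 (adjusted p = 2.13e-15).

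Lgr6 is shown with the 250 bases before 1 of its RefSeq transcript starts because it separates the luminal populations more widely than the other receptors with a promoter entry. The sequence is from RefSeq (GRCm38.p6), chr1:135105277-135105526, minus strand, 5′ to 3′. The gene as annotated reaches further out than this start, so 98 of the 250 bases lie inside its span, and capitals mark a match to AGGAAG, a core motif of ETS factors.

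Lgr6: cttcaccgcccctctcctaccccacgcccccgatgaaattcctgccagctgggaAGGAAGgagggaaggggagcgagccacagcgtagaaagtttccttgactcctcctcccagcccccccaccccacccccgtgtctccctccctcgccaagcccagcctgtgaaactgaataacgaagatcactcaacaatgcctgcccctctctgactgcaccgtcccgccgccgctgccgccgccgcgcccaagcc

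Of the 7 genes, 5 matched an entry of the promoter table (Lgr4, Lgr6, Rnf43, Tspan8 and Procr). AGGAAG, searched on both strands, was found in the Lgr6 window alone among them, and 29.5% of 32851 promoter windows of 250 bases hold it. The TCF/LEF motifs CTTTGAT and CTTTGTT, searched on both strands, were found in none of the 5 windows, and 8.06% of all windows hold at least 1 of them. These are letter matches and say nothing of binding.

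Lgr5 was the gene with the widest span, from no count in 4 luminal libraries to 230 CPM in a basal duct library. In basal duct cells it stood at 64.3 and 119 CPM in the Elf5 model and 221 and 230 CPM in the PR-cre model. In basal TEB cells it stood at 0.274 and 1.24 CPM in the Elf5 model and 4.43 and 7.14 CPM in the PR-cre model. Every basal TEB library lay below every basal duct library. The fitted change was 68.6-fold lower in TEBs (log2 -6.10 ± 1.06 SE, adjusted p = 0.000466 by edgeR). It passed the test in each model alone, at log2 -6.91 ± 1.58 in the Elf5 model and -5.29 ± 1.40 in the PR-cre model (adjusted p = 0.00436 and 0.0152 by edgeR). In basal cells of 1 model alone, 36.4% (Elf5) and 24.7% (PR-cre) of all genes were called between tissues. In the same test 22.8% were called in GFP+, 18.4% in YFP-, 18.5% in GFP- and 7.86% in YFP+ cells.

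The basal TEB and duct comparison called 4 of the 7 genes, Znrf3 higher and Lgr5, Tspan8 and Procr lower, where 43.6% of all genes were called (20.9% higher and 22.8% lower). Summed markers of the gates also moved with tissue. The 12 basal markers summed to between 35107.1 and 38854.4 CPM in basal ducts and between 7258.4 and 15564.1 CPM in basal TEBs. The 10 proliferation markers went from a range of 144.7 to 419.7 CPM to a range of 1564.6 to 2049.6 CPM. The part of these shifts in the changes of the 7 genes was not tested. In bulk libraries, fewer cells that hold a transcript and less transcript per cell cannot be told apart.

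In the luminal populations Lgr5 was at a lower level with the same direction. GFP+ cells held 8.42 and 9.12 CPM in ducts against 0.154 and 0.0407 CPM in TEBs, and YFP- cells 27.6 and 16.8 CPM in ducts against 2.04 and 2.45 CPM in TEBs. The ranges of duct and TEB did not overlap in either population. Lgr5 was 29.2-fold lower in GFP+/YFP- TEB cells (log2 -4.87 ± 1.14 SE, adjusted p = 0.00591 by edgeR). Within YFP- cells alone the change was log2 -3.31 ± 1.33 and did not pass the test (adjusted p = 0.108 by edgeR), and within GFP+ cells alone it was -6.43 ± 1.86 (adjusted p = 0.0265 by edgeR). Whether the 2 populations differ in this change was not tested.

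GFP-/YFP+ cells had almost no Lgr5 outside 1 library. The 2 GFP- TEB libraries and GFP- duct replicate 1 held no count, which allows up to 0.0844 CPM in the duct library. YFP+ cells held 1.84 and 0.09 CPM in ducts and 0 and 0.0231 CPM in TEBs, the latter a single count. GFP- duct replicate 2 held 18.7 CPM, and it is the library with 2465.9 CPM of keratinocyte transcripts. It also held 3617.0 CPM of the 12 basal markers, against 57.6 to 69.2 CPM in the other GFP-/YFP+ duct libraries. The part of either in its Lgr5 level was not tested. With all libraries, the TEB and duct comparison of GFP-/YFP+ cells called Lgr5 lower (adjusted p = 0.0126 by edgeR, and 0.0102 with 6 means). Without the 2 keratinocyte libraries it was not called. Neither GFP- group then held a count, so that fit could not estimate the change (SE 18324.43) and does not decide it. Leaving out YFP+ duct replicate 1 or YFP+ TEB replicate 1 also ended the call (adjusted p = 0.382 and 0.0526), and limma-voom did not call it (adjusted p = 0.233). No fold is given, since a compared group held no count.

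The Lgr5 difference between the luminal populations in ducts depended on that library and on the test. With all libraries, Lgr5 was 4.55-fold higher in GFP+/YFP- duct cells (log2 2.18 ± 0.93 SE) and not called (adjusted p = 0.0712 by edgeR), while limma-voom called it (4.81, adjusted p = 0.00935), as did edgeR without GFP- duct replicate 1 (1.66, adjusted p = 0.026). Without the 2 keratinocyte libraries the difference was log2 7.93 ± 1.16 and passed the test (adjusted p = 0.000189 by edgeR). The PR-cre model has neither a GFP- library nor a keratinocyte library in ducts. Within it the difference was log2 4.46 ± 1.45 (adjusted p = 0.0274 by edgeR), where 39.1% of all genes were called. The SE and p-value still draw on the spread in all groups of the shared fit, GFP- ducts among them.

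Per kilobase of deposited gene length the 3 receptors can be set beside each other. In basal ducts Lgr4 made up 39.2 to 44.5% of their summed level, Lgr6 30.3 to 51.5% and Lgr5 8.35 to 29%. In basal TEBs Lgr4 made up 37.8 to 46.6%, Lgr6 52.7 to 62.2% and Lgr5 0.037 to 1.14%. The summed level was 161 ± 17 CPM per kilobase in basal ducts and 136 ± 15.1 in basal TEBs (SD, n = 4 each), ranges of 136 to 175 and 124 to 158 that overlapped. The Lgr5 share was lower, and the Lgr6 share higher, in every basal TEB library than in any basal duct library.

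Luminal cells divided the receptors differently. In GFP+/YFP- ducts Lgr6 made up 67.7 to 70.8% of the summed level and Lgr4 25.1 to 26.4%, with a sum of 64.8 ± 23.5 CPM per kilobase (SD, n = 4). In GFP+/YFP- TEBs the sum was 46.2 ± 2.66, with 57 to 67.1% from Lgr6. In GFP-/YFP+ cells the sum was 8.15 ± 3.81 CPM per kilobase in ducts and 3.38 ± 1.25 in TEBs, and Lgr4 made up 85.7 to 96.8% of it in TEBs. The receptor with the largest share was Lgr6 in GFP+/YFP- cells and Lgr4 in GFP-/YFP+ cells, in every library of these 2 compartments.

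**Figure D2:**
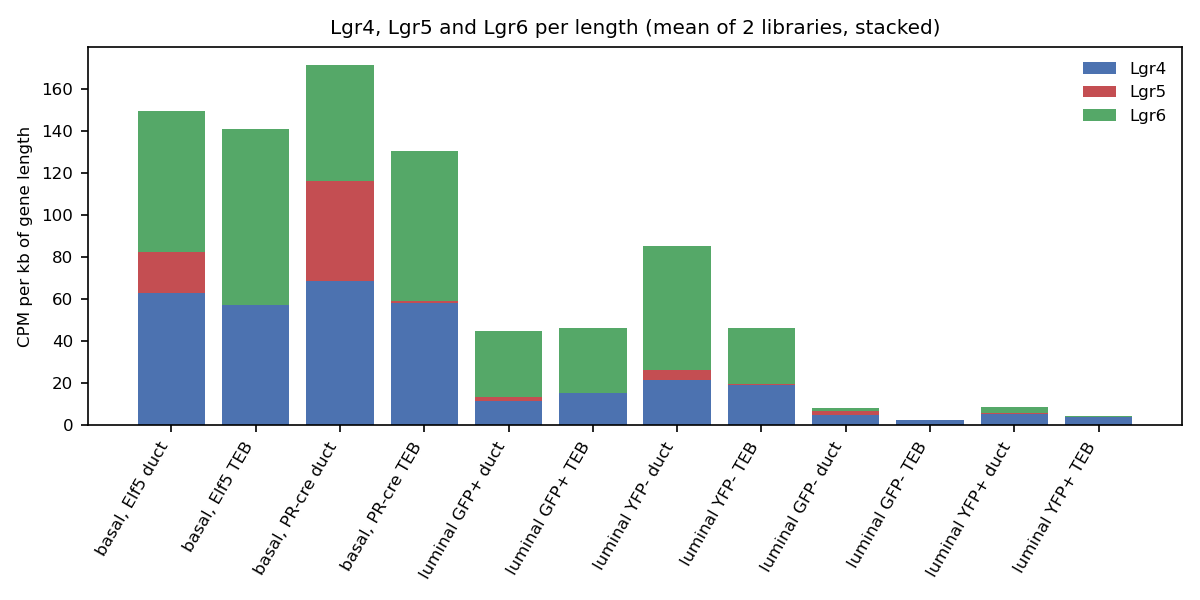
Stacked bars of Lgr4, Lgr5 and Lgr6 in CPM per kilobase of gene length (the mean of 2 libraries per group) in the 12 groups. Lgr5 is visible in basal ducts, where it makes up 8.35 to 29% of the sum, and nearly absent from basal TEBs, where it makes up 0.037 to 1.14%.

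The receptors' ligands were scarce in these epithelial libraries. Rspo1 was highest in YFP- cells, at 7 and 5.17 CPM in ducts and 10.5 and 9.36 CPM in TEBs. The GFP+ libraries, also high in Elf5, held 1.27 and 0.253 CPM in ducts and 1.23 and 0.915 CPM in TEBs. All other libraries held 1.42 CPM or less. Rspo1 was higher in GFP+/YFP- than in GFP-/YFP+ cells in ducts (adjusted p = 0.000399 by edgeR) and in TEBs (log2 4.12 ± 0.84 SE, adjusted p = 0.000778), with no count in either GFP- duct library. Neither basal nor GFP+/YFP- cells changed Rspo1 between tissues past the threshold (adjusted p = 0.0543 and 0.592 by edgeR), and the basal value passed it without the 2 keratinocyte libraries (log2 -2.06 ± 0.81, adjusted p = 0.0493). Rspo2 reached 0.276 CPM at most, in a basal TEB library, Rspo3 1.29 CPM, in GFP- duct replicate 2, and Rspo4 0.154 CPM. Of the 4 R-spondin genes 2, Rspo1 and Rspo3, passed the filter.

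Znrf3, the ligase gene, was higher in TEBs in the basal and in the GFP+/YFP- compartment. Basal ducts held 44 and 31.9 CPM in the Elf5 model and 43.8 and 36.8 CPM in the PR-cre model, against 72.2, 66.1, 81 and 84.6 CPM in basal TEBs. GFP+ cells held 12.7 and 13.7 CPM in ducts and 25 and 24.1 CPM in TEBs, and YFP- cells 15.6 and 17.5 CPM in ducts and 28.7 and 37 CPM in TEBs. No duct library reached a TEB library in any of these 4 populations. Znrf3 rose 1.93-fold in basal TEB cells (log2 0.95 ± 0.12 SE, adjusted p = 9.18e-06 by edgeR) and 1.92-fold in GFP+/YFP- TEB cells (log2 0.94 ± 0.12, adjusted p = 2.51e-05). It passed the test within each of the 4 populations alone, with adjusted p from edgeR of 0.000899 and 0.000346 in basal cells of the Elf5 and PR-cre model, 0.00164 in GFP+ and 0.00099 in YFP- cells.

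For Znrf3, GFP-/YFP+ duct libraries held 13.7 to 17.3 CPM and TEB libraries 15.9 to 22.1 CPM, which overlapped. The difference was log2 0.30 ± 0.12 SE and was not called (adjusted p = 0.0943 by edgeR). The TEB effect was 0.65 ± 0.17 larger on the log2 scale in GFP+/YFP- than in GFP-/YFP+ cells (adjusted p = 0.024 by edgeR), a call lost without the 2 keratinocyte libraries (0.50, adjusted p = 0.0905), with 6 means (0.094), in either model alone (0.0901 and 0.285) and when any 1 of 9 luminal libraries was left out (adjusted p from 0.0506 to 0.0858). These were GFP+ duct replicates 1 and 2, GFP+ TEB replicate 1, GFP- duct replicate 2, GFP- TEB replicate 2, YFP+ duct replicate 2, YFP+ TEB replicate 1, YFP- duct replicate 1 and YFP- TEB replicate 2. The basal and luminal TEB effects on Znrf3 differed by 0.33 ± 0.15, which was not called (adjusted p = 0.119 by edgeR).

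Rnf43, its paralog, had another pattern. In basal cells it stood at 69.2 and 75.2 CPM in Elf5 ducts, 71 and 67.3 CPM in PR-cre ducts, 66.6 and 57 CPM in Elf5 TEBs, and 69.3 and 75.6 CPM in PR-cre TEBs. These ranges overlapped, and the change was log2 -0.08 ± 0.13 SE (adjusted p = 0.663 by edgeR). GFP+ cells held 101 and 104 CPM in ducts, the highest levels of the 12 groups, and 36.8 and 33.3 CPM in TEBs. YFP- cells held 90.7 and 94.1 CPM in ducts and 65.4 and 74.1 CPM in TEBs. Rnf43 fell 1.97-fold in GFP+/YFP- TEB cells (log2 -0.98 ± 0.13, adjusted p = 2.19e-05 by edgeR). The change was log2 -1.55 ± 0.18 in GFP+ cells alone (adjusted p = 2.07e-05 by edgeR), and in YFP- cells alone it was -0.41 ± 0.18 and not called (adjusted p = 0.127).

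In GFP-/YFP+ cells Rnf43 stood at 19.6 and 34.1 CPM in GFP- ducts, 13.7 and 11.9 CPM in GFP- TEBs, 27.7 and 24.1 CPM in YFP+ ducts, and 23.6 and 27.3 CPM in YFP+ TEBs. It was 1.46-fold lower in TEBs over both (log2 -0.55 ± 0.13 SE, adjusted p = 0.00483 by edgeR), and without the 2 keratinocyte libraries it was still called, at -0.34 ± 0.09 (adjusted p = 0.016), but not with 6 means (-0.47, adjusted p = 0.228). In YFP+ cells alone the change was -0.03 ± 0.18 (adjusted p = 0.993). The Rnf43 effect in GFP+/YFP- cells differed from that in GFP-/YFP+ cells by -0.43 ± 0.18, not called (adjusted p = 0.146 by edgeR), and by -0.69 ± 0.13 without the 2 libraries, which was called (adjusted p = 0.00303). The TEB effect on Rnf43 was 0.69 ± 0.15 higher in basal than in luminal cells (adjusted p = 0.00317 by edgeR), and within the PR-cre model this difference was 0.29 ± 0.22 and not called (adjusted p = 0.488), where 12.2% of all genes were called. With 6 means it was 0.61 and not called (adjusted p = 0.194).

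The ratio of the 2 ligases per kilobase shows both movements at once. Znrf3 over Rnf43 had a median of 0.398 in basal ducts (0.29 to 0.435) and 0.778 in basal TEBs (0.741 to 0.799). In GFP+/YFP- cells it went from 0.104 in ducts (0.086 to 0.127) to 0.403 in TEBs (0.3 to 0.495), and in GFP-/YFP+ cells from 0.417 (0.337 to 0.502) to 0.741 (0.554 to 0.967). The ratio was higher in every TEB library than in every duct library of the same compartment. A ratio within libraries shows unequal change of the 2 genes and not which of them changed. Rnf43 stayed the more abundant of the 2 per kilobase in all 24 libraries.

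**Figure D3:**
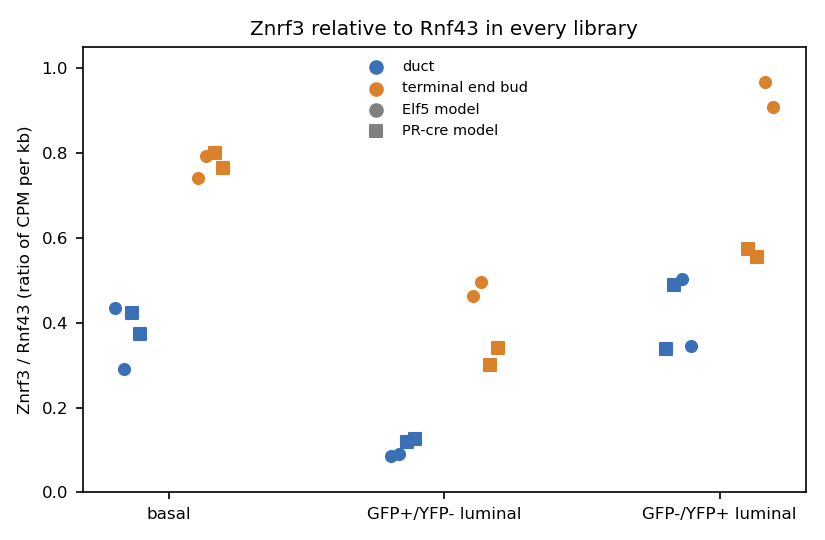
The ratio of Znrf3 to Rnf43, each in CPM per kilobase, in every library, by compartment, tissue (blue duct, orange TEB) and mouse model (circles Elf5, squares PR-cre). Within each compartment the TEB libraries lie above the duct libraries, and every ratio is below 1.0.

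Other genes of the Wnt pathway were counted from lists. Axin2, a negative regulator and common readout of Wnt signalling, stood at 38.7, 23.1, 28 and 30.7 CPM in basal ducts and 87, 87.8, 42.2 and 38.2 CPM in basal TEBs, and was not called there (log2 0.98 ± 0.41 SE, adjusted p = 0.0705 by edgeR; 0.97 ± 0.20 and 0.000825 without the 2 keratinocyte libraries). In GFP+/YFP- cells Axin2 ranged over 0.76 to 1.96 CPM for ducts and 6.12 to 17.1 CPM for TEBs, and rose 6.59-fold (log2 2.72 ± 0.47, adjusted p = 0.000471). The list median of 10 measured Wnt feedback targets was log2 2.56 in GFP+/YFP- TEB cells, against 0.02 over all genes. Of the 10, 6 rose, where 17.4% of all genes were called higher, and 4 were not called. The largest were Tnfrsf19, a receptor of the tumour necrosis factor family (4.14), and the Dishevelled antagonists Nkd1 (3.74) and Nkd2 (3.4), beside Axin2. GFP+/YFP- TEB libraries held between 228.8 and 1015.3 CPM of the basal markers, against 268.0 to 289.0 CPM in the ducts, and the part of that in these rises was not tested.

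In basal cells, where 20.9% of all genes were called higher and 22.8% lower in TEBs, the same targets went both ways. Of 10, Tnfrsf19 (log2 3.09) and Tcf7, a transcription factor of the pathway (1.82), rose, Apcdd1 (-1.92) and Nkd1 (-1.36) fell, and 6 were not called. In GFP-/YFP+ cells, where 24.6% of all genes were called, 1 of 10 was called, Lef1, with a compared group at no count. Without the 2 keratinocyte libraries 4 of 11 rose there (Axin2, Apcdd1, Tnfrsf19 and Wif1) and 7 were not called. The TEB effect on Axin2 was log2 2.81 ± 0.69 larger in GFP+/YFP- than in GFP-/YFP+ cells (adjusted p = 0.0186 by edgeR), and 1.77 ± 0.42 without the 2 libraries (adjusted p = 0.0122).

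The Frizzled, LRP and co-receptor list was higher in the basal layer, as the 3 LGR genes were. Of 16 genes, 12 were higher and 2 lower in basal than in luminal duct cells (33.5% and 29.8% of all genes). In TEBs 14 were higher and 2 lower (30.8% and 28% of all genes). The list medians were log2 1.60 and 1.69, against 0.02 and 0.04 over all genes. The Wnt receptors Fzd7 and Fzd9 were log2 3.7 and 3.6 higher in basal ducts. Between basal TEBs and ducts, 4 of the 16 rose and 6 fell (20.9% and 22.8% of all genes). Ror2, a receptor of the non-canonical pathway, rose by log2 2.50, Fzd10 rose by 1.23, Fzd4 changed by -1.39 and Fzd8 by -1.33. Of 15 transducers, 3 fell in basal TEB cells, where 22.8% of all genes were called lower, and 12 were not called (list median -0.11).

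**Figure D4:**
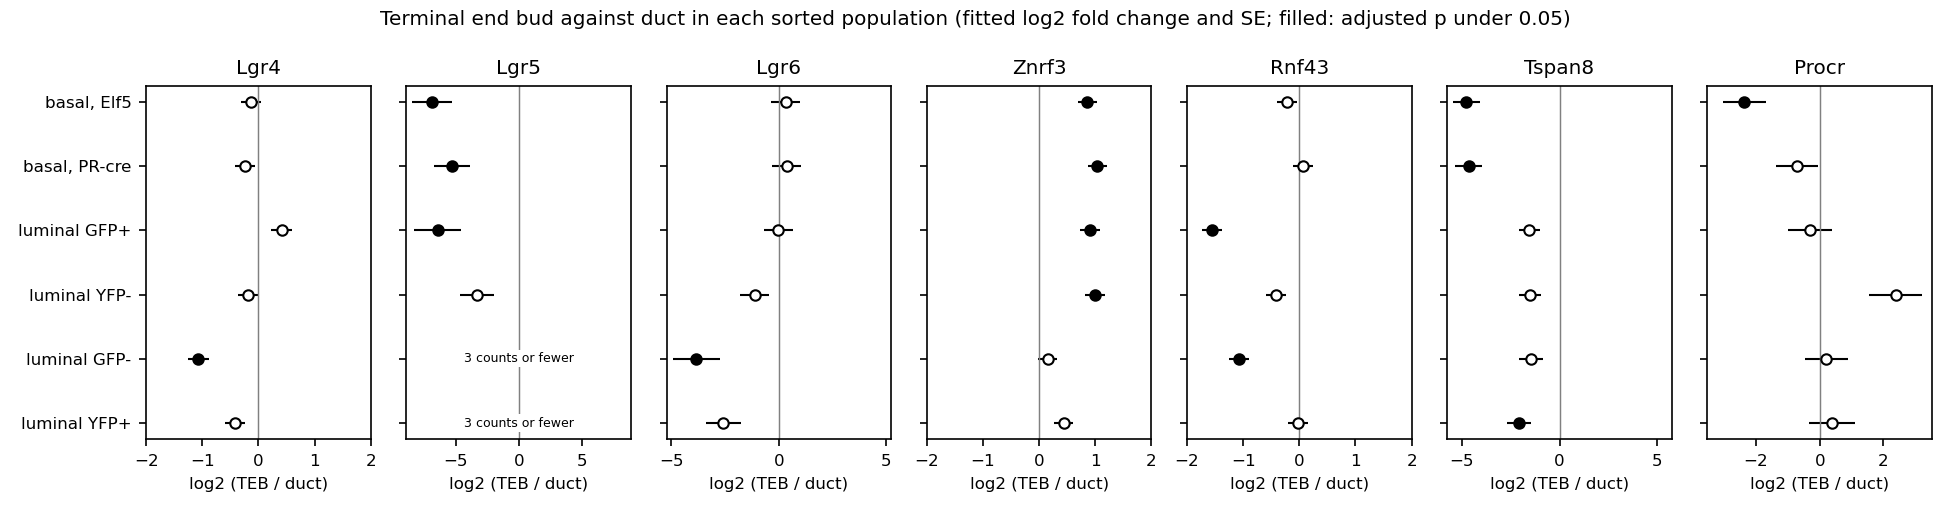
Fitted log2 fold changes between TEB and duct, with standard errors as bars, for the 7 genes in each of the 6 sorted populations; filled points have an adjusted p under 0.05 by edgeR. Znrf3 lies between 0.86 and 1.04 in 4 populations, Lgr5 is below 0 in the 4 populations where it is drawn (no point where a group held 3 counts or fewer), and Tspan8 is lowest in both basal populations, at -4.75 and -4.63.

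Tspan8 encodes a tetraspanin, a membrane protein that has been used with Lgr5 to mark a quiescent basal stem cell. In these libraries its level was highest in GFP+/YFP- luminal cells and not in basal cells. GFP+ cells held 220 and 220 CPM in ducts and 71.6 and 79.1 CPM in TEBs, and YFP- cells 232 and 192 CPM in ducts and 75.9 and 73.4 CPM in TEBs. Basal cells held 8.79 and 27.6 CPM in Elf5 ducts, 16.7 and 20 CPM in PR-cre ducts, and between 0.449 and 0.891 CPM in all 4 TEB libraries. The duct and TEB ranges did not overlap in either compartment.

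Tspan8 was 25.9-fold lower in basal TEB than in basal duct cells (log2 -4.69 ± 0.50 SE, adjusted p = 4.44e-06 by edgeR), with values of -4.75 in the Elf5 model and -4.63 in the PR-cre model. In GFP+/YFP- cells it was 2.88-fold lower in TEBs (log2 -1.53 ± 0.38, adjusted p = 0.00751 by edgeR), and neither GFP+ nor YFP- cells passed the test alone (adjusted p = 0.0569 and 0.0713). The comparison of GFP+/YFP- cells called 4 of the 7 genes, Znrf3 higher and Lgr5, Rnf43 and Tspan8 lower, where 32.6% of all genes were called (17.4% higher and 15.2% lower). The TEB effect on Tspan8 was 3.05 ± 0.56 lower on the log2 scale in basal than in luminal cells (adjusted p = 0.00108 by edgeR). That test of the difference between layers called 4 of the 7 genes, Lgr6, Rnf43, Tspan8 and Procr, where 26.3% of all genes were called (11.4% higher and 14.9% lower).

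Because Tspan8 is abundant in luminal cells, the luminal markers in the basal libraries are given beside it. The 10 luminal markers summed to between 937.1 and 1107.8 CPM in basal ducts and between 559.4 and 764.2 CPM in basal TEBs, against 7577.3 to 19171.3 CPM in the luminal libraries. The 10 luminal progenitor markers stood at 289.0 and 270.1 CPM in basal Elf5 ducts against 931.3 and 1049.3 CPM in TEBs. In the PR-cre model they stood at 370.2 and 380.6 CPM in ducts and 473.0 and 341.7 CPM in TEBs, which overlapped. The part of luminal transcripts in the basal change of Tspan8 was not tested.

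GFP-/YFP+ cells held 3.25 and 12.1 CPM of Tspan8 in GFP- ducts, 1.82 and 3.72 CPM in GFP- TEBs, 19.1 and 11.1 CPM in YFP+ ducts, and 4.38 and 2.84 CPM in YFP+ TEBs. Over both populations Tspan8 was 3.39-fold lower in TEBs (log2 -1.76 ± 0.42 SE, adjusted p = 0.00737 by edgeR), and without the 2 keratinocyte libraries -1.16 ± 0.41 (adjusted p = 0.0673). In GFP- cells alone it was -1.46 and not called (adjusted p = 0.108). This comparison called 5 of the 7 genes, all lower (Lgr4, Lgr5, Lgr6, Rnf43 and Tspan8), where 24.6% of all genes were called and 11.6% were lower. Without the 2 libraries it called 2, Lgr4 at log2 -0.53 ± 0.08 (adjusted p = 0.000338) and Rnf43, where 21.4% were called. The luminal progenitor markers summed to between 458.9 and 1343.5 CPM in these ducts and between 87.9 and 194.2 CPM in these TEBs, and their part in the lower values was not tested.

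Lgr6 in the same cells was 9.25-fold lower in TEBs with all libraries (log2 -3.21 ± 0.67 SE, adjusted p = 0.00365 by edgeR) and -1.40 ± 0.72 without the 2 keratinocyte libraries (adjusted p = 0.21). It was not called in the PR-cre model alone (-2.58, adjusted p = 0.0723) or by limma-voom (-2.49, adjusted p = 0.116). Basal cells showed log2 0.34 ± 0.48 for Lgr6 (adjusted p = 0.609) and GFP+/YFP- cells -0.58 ± 0.48 (adjusted p = 0.406; 0.0414 by limma-voom). The TEB effect on Lgr6 was 2.24 ± 0.64 higher in basal than in luminal cells (adjusted p = 0.0201 by edgeR), and 1.35 ± 0.47 without the 2 libraries (adjusted p = 0.0535). It was not called without basal Elf5 duct replicate 2 (0.0563) or basal PR-cre duct replicate 2 (0.0513), in the Elf5 or PR-cre model alone (0.124 and 0.127) or with 6 means (0.0653). For Lgr4 the TEB effect was 0.86 ± 0.18 higher in GFP+/YFP- than in GFP-/YFP+ cells (adjusted p = 0.00559 by edgeR), and 0.57 ± 0.12 without the 2 libraries (adjusted p = 0.00457). It was not called in the PR-cre model alone (0.24, adjusted p = 0.741) or with 6 means (0.74, adjusted p = 0.237). That test called Lgr4 and Znrf3 of the 7 genes, where 10.6% of all genes were called and 4.93% were higher.

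The 250 bases before a RefSeq transcript start of Tspan8 are shown because Tspan8 and its neighbour Lgr5 were both lower in TEBs in basal and in GFP+/YFP- cells while their levels are ordered differently across the populations. The sequence is from RefSeq (GRCm38.p6), chr10:115817034-115817283, plus strand, 5′ to 3′. All 250 bases lie inside the annotated span of the gene, whose outermost start is further out. There are no capitals because none of the 3 motifs was found.

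Tspan8: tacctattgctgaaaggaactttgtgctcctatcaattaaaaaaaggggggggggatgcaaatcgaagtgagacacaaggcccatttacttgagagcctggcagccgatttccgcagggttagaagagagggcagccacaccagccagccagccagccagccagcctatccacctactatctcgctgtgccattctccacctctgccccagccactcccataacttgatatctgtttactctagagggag

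The genes on either side of the pair were read as well. Zfc3h1, an RNA surveillance factor on the other side of Lgr5, lay between 56.1 and 131 CPM in all libraries and was log2 -0.50 ± 0.09 SE in basal TEBs (adjusted p = 0.000312 by edgeR). Ptprr, a phosphatase gene beyond Tspan8, reached 0.255 CPM at most and did not pass the filter, and A930009A15Rik did not pass it either. In basal cells the changes of Lgr5 and Tspan8, at log2 -6.10 and -4.69, were larger than that of the 1 neighbour that was tested. Across the 12 group means of log2 CPM, Lgr5 and Tspan8 correlated at r = 0.33, a description of groups that share gates and tissues.

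The other tetraspanins went both ways. Of 26 other tetraspanin genes, 8 rose and 6 fell in basal TEB cells (20.9% and 22.8% of all genes). The list median was log2 0.20 against -0.04 over all genes. The largest changes were in Cd53, with a compared group at no count, Tspan17 (-3.63) and Tspan13 (1.81). In GFP+/YFP- TEB cells 5 rose and 6 fell (17.4% and 15.2% of all genes, list median 0.05). Between GFP+/YFP- and GFP-/YFP+ duct cells 7 of the 26 were higher and 10 lower, where 47.9% of all genes were called, 24.6% higher. Among the tetraspanins called there were Tspan33 (log2 3.80), Tspan1 (-4.62) and Tspan13 (-3.99).

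Procr encodes the endothelial protein C receptor, which marks a multipotent mammary basal population and is also abundant in blood vessel endothelium. Its level was low and its change rested on the Elf5 model. Basal ducts held 13 and 8.45 CPM in the Elf5 model and 2.78 and 3.82 CPM in the PR-cre model. Basal TEBs held 2.37, 1.81, 1.87 and 2.14 CPM, below every duct library. All 16 luminal libraries held between 0 and 1.61 CPM. Procr was 12.6-fold higher in basal than in luminal ducts (log2 3.65 ± 0.41 SE, adjusted p = 6.13e-07 by edgeR) and 2.73-fold higher in TEBs (log2 1.45 ± 0.40, adjusted p = 0.00471). The TEB call was lost in the Elf5 model alone (1.16, adjusted p = 0.0995) and with 6 means (1.39, adjusted p = 0.054).

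In basal TEB cells Procr was 2.90-fold lower (log2 -1.54 ± 0.47 SE, adjusted p = 0.0143 by edgeR). The Elf5 model alone gave -2.36 ± 0.68 (adjusted p = 0.0124) and the PR-cre model alone -0.72 ± 0.66, which was not called (adjusted p = 0.482). The call ended without Elf5 duct replicate 1 (adjusted p = 0.0686), Elf5 TEB replicate 2 (0.061), PR-cre TEB replicate 1 (0.0624) or PR-cre duct replicate 2 (0.0576), and with 6 means (0.0636). The 12 endothelial markers summed to 121.7 and 53.4 CPM in basal Elf5 ducts, 11 and 18.4 CPM in basal PR-cre ducts, and between 10.9 and 20.8 CPM in basal TEBs. Pecam1, a defining endothelial gene, stood at 28.9 and 12.8 CPM in the 2 Elf5 ducts and between 0.867 and 4.33 CPM in the other basal libraries. Both libraries with the highest Procr therefore also held the most endothelial transcripts in the basal gate, and the part of these in the Procr result was not tested.

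In the luminal gates Procr was low throughout. GFP-/YFP+ cells held 54.9 to 110.3 CPM of the endothelial list and GFP+/YFP- cells 4.7 to 22.7 CPM, with Procr at 0.36 to 1.61 CPM and 0 to 1.2 CPM. Pecam1 overlapped between these populations, at 2.29 to 5.29 CPM in GFP-/YFP+ and 0.999 to 6.62 CPM in GFP+/YFP- ducts. In TEBs it stood at 2.38 to 7.26 and 1.42 to 3.28 CPM. The higher sum in GFP-/YFP+ cells thus lay mostly in other genes of the list. The difference in Procr between these populations was not called in ducts (log2 -1.26 ± 0.54 SE, adjusted p = 0.0669 by edgeR; 0.00237 without YFP- duct replicate 1 and 0.0225 without GFP+ duct replicate 1, and 0.0157 by DESeq2 and 0.0457 by limma-voom with all libraries) or in TEBs (-0.51 ± 0.49, adjusted p = 0.431). Of 11 protein C and coagulation partners, 3 fell in basal TEB cells, where 22.8% of all genes were called lower, and 8 were not called. Pros1, the protein S cofactor of activated protein C, was at log2 -1.62 there, F2rl1, a protease-activated receptor, at -1.35 and Plaur, the urokinase receptor, at -1.14. The TEB effect on Procr was 2.20 ± 0.60 lower in basal than in luminal cells (adjusted p = 0.0109 by edgeR). Neither model alone passed this test (adjusted p = 0.061 in the Elf5 model, where 19.5% of all genes were called, and 0.138 in the PR-cre model), nor did 6 means (0.109). The luminal changes were not called, at log2 1.04 in GFP+/YFP- and 0.29 in GFP-/YFP+ cells (adjusted p = 0.156 and 0.744 by edgeR). YFP- cells alone gave 2.38, with 8 counts in the YFP- duct group, and GFP+ cells alone -0.30.

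The basal cells of both models were compared directly. None of the 7 genes was called between them by edgeR, where 9.98% of all genes were called, and 1, Lgr5, had an unadjusted p under 0.05. DESeq2 and limma-voom called 0 as well. Lgr5 was log2 -2.11 ± 0.93 SE in the Elf5 model against the PR-cre model (adjusted p = 0.2 by edgeR), and without the 2 keratinocyte libraries it passed at -2.13 (adjusted p = 0.0173). Both duct libraries and both TEB libraries of the Elf5 model lay below those of the PR-cre model. Procr was 0.88 ± 0.47 in the other direction (adjusted p = 0.291).

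Of 20 mammary stem and basal progenitor genes listed beside the 7, 4 rose and 4 fell in basal TEB cells and 12 were not called, with a list median of log2 0.07. Over all genes tested, 20.9% were called higher and 22.8% lower there. Ngfr, the low-affinity neurotrophin receptor, rose by 3.43 and Prom1, a membrane glycoprotein, by 1.68. Aldh1a1, a retinal dehydrogenase, rose by 2.19, and Cdh5, the endothelial cadherin that also marks a basal stem population, was at -2.0. Cdh5 is also 1 of the endothelial genes, with 12 and 3.62 CPM in basal Elf5 ducts and between 0.197 and 2.5 CPM in the other basal libraries. Lgr5, Tspan8 and Procr were called lower in basal TEB cells, Procr with the limits given above. The list counts lie near the shares over all genes, so they set no contrast with these genes.

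The order of the 12 groups differed from gene to gene. Lgr4 and Procr had all 4 basal groups on top, and Znrf3 had the 4 basal groups on top with both TEB groups first. Lgr5 had the 2 basal duct groups first and both basal TEB groups behind the GFP+ and YFP- ducts. Rnf43 had GFP+ and YFP- ducts first, apart from the basal groups below them. Tspan8 had the 4 GFP+/YFP- groups first and the 2 basal TEB groups last. Neighbouring groups had ranges that overlapped in 8 of 11 steps for Tspan8, 7 for Lgr6 and Procr, 6 for Znrf3 and Rnf43, 4 for Lgr5 and 3 for Lgr4, so places in the order within those steps do not differ beyond the spread of 2 libraries.

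For each of the 7 genes, the 3 genes most like it were found by the Pearson correlation of log2 CPM over the 12 group means, among 12855 genes. Lgr4 was most like BC034090 (r = 0.993), Kirrel and Sox8 (both 0.99), and Lgr6 most like Zfp512 (0.992), Kank4 (0.985) and Igf1r (0.984). Lgr5 was most like Kansl1 (0.976), Stx17 (0.96) and Upf2 (0.959). Znrf3 was most like Gtf2e1 (0.976), Rrp8 (0.974) and Tcf7 (0.968), and Rnf43 most like Zfp93 (0.956), Zhx3 (0.953) and Boc (0.948). Tspan8 was most like Dapk1 (0.98), Arhgef6 (0.977) and Atp6v1b1 (0.976), and Procr most like S1pr3 and Rarres2 (both 0.935) and Pdgfrb (0.929). Among the 7 themselves, Lgr4 and Lgr6 had the highest correlation (0.92), then Lgr6 and Rnf43 (0.9), and Znrf3 and Tspan8 the lowest (-0.57). These correlations describe 12 groups that share gates, tissues and mice.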

How the data were processed

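Whole-number read counts per gene were deposited for 24 libraries, from total RNA and the TruSeq RNA v2 kit per the labels' protocols. Per the submitters' processing notes, the authors used featureCounts with the mm10 build; aligner, annotation release and strand setting: not given in the sources used here. The deposited counts were used as they stand. Symbols came from a RefSeq table (GRCm38.p6) for 25275 of 27179 identifiers.

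The filterByExpr function, given the 12 groups, kept 18109 genes, and 1 mean per group was fitted to all libraries with edgeR 4.0.16 (R 4.3.3; TMM scaling, robust quasi-likelihood F-test). Contrasts averaged groups on the log2 scale, with Benjamini-Hochberg adjustment over all genes tested and calls at an adjusted p under 0.05. CPM per kilobase used the deposited gene lengths. Alternatives were limma-voom 3.58.1, DESeq2 1.42.0, RLE size factors, no filter, 6 compartment means, a replicate block and libraries left out. Each model alone was a further alternative, as a contrast of its groups within the main fit to all libraries. The steps were tested on simulated data.

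Replicate libraries differed by more than counting noise (chi-square per degree of freedom 18.0 to 174.5), so none was merged. Reads carry no molecular identifiers, so floors cover counting error only. The 7 genes and the lists were chosen with earlier results of these data known. The genes named were the 7, the R-spondins, Axin2, up to 4 called members of each list by size of change, direct chromosomal neighbours and the 3 most correlated genes. Elf5, Pgr and Pecam1 are members of the marker lists, and Cdh5, Lef1 and Wif1 were named because a count of few genes needed it. The list counts without the 2 keratinocyte libraries were added after seeing the data.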

Additional observations from a re-analysis of the deposited data

Results flagged for a closer look

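In 42 groups of 4 libraries (the 7 genes in 6 combinations of compartment and tissue), 2 libraries stood far from the other 3. Both concern Lgr5 in GFP-/YFP+ luminal cells. Chance gives about 2.1 for normally distributed values, which levels near 0 are not. GFP- duct replicate 2 held 18.7 CPM against at most 1.84 CPM in the other 3. It is the library with the most keratinocyte transcripts and, among the luminal libraries, the most basal marker transcripts (3617.0 CPM). The part of either in the value was not tested. YFP+ TEB replicate 2 held 0.0231 CPM, a single count, where the other 3 held none. The rule flags any count beside 3 libraries without one.

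In the tests of a difference between TEB effects, 4 genes differed between basal and luminal cells, where 26.3% of all genes were called. These were Lgr6 (log2 2.24, higher in basal), Rnf43 (0.69, higher in basal), Tspan8 (-3.05, lower in basal) and Procr (-2.20, lower in basal). Between GFP+/YFP- and GFP-/YFP+ cells, Lgr4 (0.86) and Znrf3 (0.65) differed, where 10.6% of all genes were called. With 6 means, Tspan8 alone among these genes kept its call (adjusted p = 0.000243 by edgeR).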

How the results depend on the processing

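No single-gene result changed its call or direction under RLE size factors or without the filter on low counts, in 70 of 70 values each. Over all settings but those leaving out 1 library, and with these 2 included, 542 single-gene values kept call and direction, 38 lost the call, 16 gained it and 13 reversed; with 1 library left out the numbers were 744, 21, 9 and 10. The causes were not tested.

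Counts of genes over the whole table moved by more than 1.5 times as follows. In basal TEBs against ducts 7902 became 4474 in the PR-cre model alone. In GFP+/YFP- cells 5900 became 3341 (PR-cre) and 3689 (6 compartment means), and the members called went from 4 to 1 (PR-cre). In GFP-/YFP+ cells 4463 became 1424 (PR-cre) and 2494 (6 means), and the members called went from 5 to 1 (PR-cre), 3 (6 means), 3 (limma-voom) and 2 (without the 2 keratinocyte libraries). For the TEB effect of basal minus luminal cells 4761 became 2204 (PR-cre) and 2704 (6 means), and 4 members became 2 (Elf5), 1 (PR-cre) and 1 (6 means). For the TEB effect between luminal populations 1922 became 1037 (Elf5), 504 (PR-cre), 579 (6 means) and 3334 (DESeq2), and 2 members became 1, 0, 0 and 4. Between the basal models 1808 became 2835 (DESeq2), and the members called went from 0 to 1 without the 2 libraries.

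With 1 library left out, counts ranged from 6669 to 7521 (3 to 4 members) in basal TEBs against ducts, 4627 to 5245 (4 to 5) in GFP+/YFP- cells and 3101 to 5063 (2 to 5) in GFP-/YFP+ cells. They ranged from 10677 to 11837 (7) for basal against luminal ducts, 9638 to 10493 (6 to 7) in TEBs, 7606 to 8736 (4 to 5) for the luminal populations in ducts and 7431 to 7975 (5) in TEBs. They ranged from 3846 to 5561 (3 to 5) for the TEB effect of basal minus luminal, 1372 to 2654 (1 to 3) for that between luminal populations and 1141 to 1500 (0) between the basal models. Groups left with 1 library were assumed to vary like the other groups.

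Reversed log2 values were mostly small. In the PR-cre model alone these were Rnf43 0.07 (basal TEB), Lgr4 -0.18 (GFP+/YFP- TEB), Znrf3 0.10 (luminal ducts), Procr 0.03 (luminal TEBs) and Lgr5 -0.57 (TEB effect, basal minus luminal). In the Elf5 model alone they were Procr -0.30 (GFP+/YFP- TEB), Lgr5 -0.09 (luminal ducts), and, for the TEB effect between luminal populations, Tspan8 -0.09 and Procr -0.50. Without the 2 keratinocyte libraries they were Lgr5 -2.09 (TEB effect, basal minus luminal) and, between luminal populations, Lgr5 -1.85 and Tspan8 -0.36. Neither GFP- group then held an Lgr5 count, so these 2 Lgr5 values could not be estimated (SE 12852.04 and 9870.71). The same lack of counts lies behind -2.07 and -1.82 below, without GFP- duct replicate 2. For the TEB effect of basal minus luminal, limma-voom gave Lgr5 -1.29. With 1 library left out, ranges that crossed 0 were Procr -0.04 to 0.52 (GFP-/YFP+ TEB), Lgr5 -2.07 to 1.3 with a second reversal at -0.04 (TEB effect, basal minus luminal), Lgr5 -1.82 to 5.07 and Tspan8 -0.41 to 0.54, with others at -0.03 and -0.01 (between luminal populations), and Tspan8 -0.6 to 0.21, with 0.11 and 0.02 (basal models).

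Whether replicate numbers pair the libraries is not known: deviations of same-numbered TEB and duct libraries correlated at 0.08 to 0.19, over 0.1 in 4 of 6 populations, and those of different gates at -0.01 to 0.27. The numbers were not used as pairs, since the labels name no shared animal and not every correlation passed 0.1. With the replicate block no member lost its call, while the luminal duct differences of Lgr5 (2.62, adjusted p = 0.0387 by edgeR) and Procr (-1.37, adjusted p = 0.0465) gained it. Levels under 3 counts, most Lgr5 values in GFP-/YFP+ cells, cannot be told from no transcript.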
